A study of Rattus norvegicus with 8 samples.

Results

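The genes examined were the interferon regulatory factors, a family of transcription factors, taken by symbol from the gene table: Irf1, Irf2, Irf3, Irf4, Irf5, Irf7, Irf8 and Irf9. They are 8 of the 32545 genes in the table, and all 8 were among the 16478 genes that were tested. RNA-seq of poly-A RNA was carried out on rat sciatic nerve in 3 groups. PEG-fused peripheral nerve allografts (PEG-fused PNAs, 3 libraries) had been sutured in place with the PEG-fusion protocol, in which polyethylene glycol (PEG) is applied to the cut axon ends. Negative control PNAs (NC PNAs, 3 libraries) received the operation and its washes without PEG, and unoperated nerves (Unop nerves, 2 libraries) had no surgery. Both kinds of graft were taken 14 days after the operation. All animals were female outbred Sprague Dawley rats from Envigo, 3 to 6 months old, and donor and host were not matched by inbreeding. Each library came from 1 animal.

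Irf proteins bind a shared DNA motif in the promoters of interferon-induced and antigen-presentation genes. Interferon gamma raises Irf1, and type I interferon acts through a complex that holds Stat2 and Irf9, which in turn raises Irf7. Irf3, Irf5 and Irf7 are present in cells in an inactive form and are switched on by kinases that lie below sensors of nucleic acids, whereas Irf4 and Irf8 are found mainly in lymphoid and myeloid cells. In a nerve graft, members of this family can be expressed by resident Schwann cells, fibroblasts and endothelium as well as by host leukocytes.

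Promoter sequences from RefSeq (build GRCr8, while the reads were counted on Rnor 6.0) were matched to 7 of the 8 genes by symbol, the exception being Irf2. The 250 bases upstream of each annotated start were searched on both strands for 2 elements. The first was the interferon gamma activated site (GAS), TTCNNNGAA, which reads the same on both strands and lies in promoters that respond to interferon gamma. The second was the core of the interferon-stimulated response element (ISRE), read as GAAA, any 2 bases and GAAA again, which is bound by Irf proteins and by the Irf9 complex. The windows of the 4 genes with a match are shown because they are the members whose upstream sequence holds an element of either interferon signal, with the matched letters in capitals. They are Irf1 (chr10:38417685-38417934, plus strand), Irf8 (chr19:65699034-65699283, plus strand), Irf9 (chr15:33065586-33065835, plus strand) and Irf7 (chr1:205800024-205800273, minus strand), each written 5′ to 3′ towards the gene.
Irf1: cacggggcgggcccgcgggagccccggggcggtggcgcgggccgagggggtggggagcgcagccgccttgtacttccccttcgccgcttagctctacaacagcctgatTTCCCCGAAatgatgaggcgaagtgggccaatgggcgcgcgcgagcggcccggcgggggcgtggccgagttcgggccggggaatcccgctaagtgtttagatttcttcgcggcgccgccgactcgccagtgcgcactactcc
Irf8: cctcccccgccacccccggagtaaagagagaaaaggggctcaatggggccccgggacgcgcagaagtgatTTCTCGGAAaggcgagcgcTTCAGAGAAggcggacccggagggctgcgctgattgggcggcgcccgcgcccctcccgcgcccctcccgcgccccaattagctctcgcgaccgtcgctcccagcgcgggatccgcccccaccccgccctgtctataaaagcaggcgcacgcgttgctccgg
Irf9: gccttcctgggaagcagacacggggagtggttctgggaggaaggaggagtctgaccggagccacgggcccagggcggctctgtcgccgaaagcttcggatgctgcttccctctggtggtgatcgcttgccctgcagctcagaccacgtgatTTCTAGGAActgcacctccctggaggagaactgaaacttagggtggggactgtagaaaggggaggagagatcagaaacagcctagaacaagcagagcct
Irf7: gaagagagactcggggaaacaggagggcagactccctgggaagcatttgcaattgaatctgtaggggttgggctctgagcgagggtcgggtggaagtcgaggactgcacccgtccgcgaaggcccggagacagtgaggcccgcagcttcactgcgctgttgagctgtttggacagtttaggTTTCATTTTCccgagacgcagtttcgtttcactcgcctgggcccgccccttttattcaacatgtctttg
Irf1 had a GAS, TTCCCCGAA, at 142 to 134 bases upstream of the start. Irf8 had a pair of GAS matches, TTCTCGGAA at 180 to 172 bases and TTCAGAGAA at 161 to 153 bases. Irf9 had a GAS, TTCTAGGAA, at 99 to 91 bases. Irf7 was the member with an ISRE core, TTTCATTTTC, at 69 to 60 bases, written here on the gene strand. The windows of Irf3, Irf4 and Irf5 held neither set of letters. Over all 33469 rat promoters in the table, 7.67% held a GAS and 3.41% an ISRE core in a window of this length. A match is a stretch of letters and says nothing of whether a factor was bound in these nerves.

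Values are read counts per gene, normalized by the authors for library depth, and tests were made with limma on log2(count + 1). A fold change is a difference on that log2 scale with its standard error (SE), and a gene passed where its Benjamini-Hochberg adjusted p over the 16478 tested genes was under 0.05. Depth was 32472925 to 39959620 reads on genes per library, so that sampling noise was small for every Irf gene. Transcript lengths were not used here, so levels are compared between groups for a gene and not between genes. Every library carried Schwann cell markers, and none of the 6 was at 0 in all 8 libraries. Their summed count was 2.04e+06 to 2.42e+06 in Unop nerves, 57302 to 63481 in PEG-fused PNAs and 17860 to 63424 in NC PNAs. The sums of NC PNAs 1 to 3 were 63424, 23089 and 17860. Of the 6 Schwann cell markers, 2 passed as higher in PEG-fused than in NC PNAs, and 5 did so without NC PNA 1. The share of all tested genes that did so is not given here. Skeletal muscle markers (4 genes) set 2 libraries apart, with summed counts of 563872 in NC PNA 1 and 215314 in NC PNA 3. The sum was 9407 in NC PNA 2, 2543 to 14419 in PEG-fused PNAs, and 29633 and 4978 in Unop nerves 1 and 2. Results were also computed without NC PNA 1 and without NC PNA 3, and these values are given below where a call changed or a count moved by over 1.5 times.

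In PEG-fused PNAs against NC PNAs, 6 of the 8 Irf genes passed and all 6 were lower, which were Irf1, Irf2, Irf4, Irf5, Irf8 and Irf9. Over all tested genes, 13.9% passed in that direction. Irf3 and Irf7 did not pass. Irf1, Irf4 and Irf8 differed more than 2-fold. For 7 of the 8 genes each PEG-fused PNA lay below each NC PNA, an arrangement that 23.3% of all tested genes had, and Irf7 was the exception. The median log2 fold change of the 8 genes was -1.06, beside 0.00 over all tested genes. PEG-fused PNAs were nonetheless above Unop nerves in 7 of the 8 genes by the test, where 29.1% of all genes passed as higher, and in all 8 genes without overlap of libraries, where 37.3% of all genes did so. In NC PNAs against Unop nerves all 8 genes passed as higher, where 32.2% of all genes did, and all 8 were without overlap, where 37.2% of all genes were. These 3 comparisons share libraries and are not independent of each other. The order Unop nerves, PEG-fused PNAs, NC PNAs was thus seen in the means of every Irf gene. Neighbours in that order that did not differ by the test were PEG-fused and NC PNAs for Irf3 and Irf7, and PEG-fused PNAs and Unop nerves for Irf7.

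**Figure D1:**
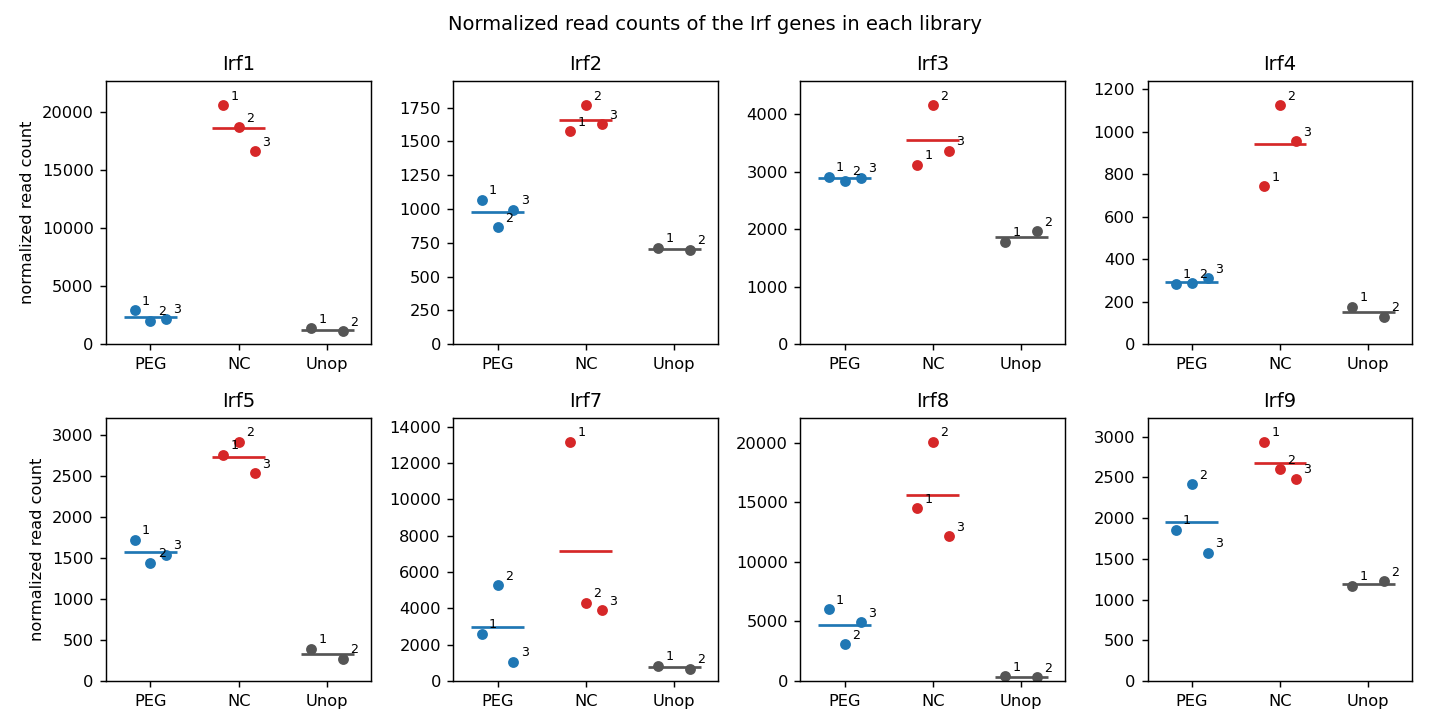
Normalized read count (vertical axis, linear from 0, a scale of its own in each panel) of the 8 Irf genes in PEG-fused PNAs (PEG), NC PNAs (NC) and Unop nerves. Each point is 1 library with its replicate number, and bars are group means. The 3 PEG points lie below the 3 NC points in every panel but that of Irf7, where PEG 2 at 5272 is above NC 2 at 4301 and NC 3 at 3902.

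Irf1 (ENSRNOG00000008144) activates genes of antigen processing and of the response to interferon gamma. Its normalized counts were 2941, 2015 and 2189 in the PEG-fused PNAs, 20631, 18723 and 16665 in the NC PNAs, and 1378 and 1099 in the Unop nerves. The lowest NC PNA was far above the highest PEG-fused PNA, and PEG-fused PNAs were closer to unoperated nerve than to NC PNAs. Irf1 was lower in PEG-fused than in NC PNAs by a log2 fold change of -2.98 (SE 0.16, adjusted p = 0.00019), the 4th smallest adjusted p of all tested genes. Against Unop nerves the log2 fold change was 0.93 in PEG-fused PNAs (SE 0.18, adjusted p = 0.00228) and 3.92 in NC PNAs (SE 0.18, adjusted p = 1.09e-06).

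Irf2 (ENSRNOG00000009824) binds the same sites as Irf1 and is known as its antagonist. Its counts were 1068, 867 and 996 in the PEG-fused PNAs, 1574, 1770 and 1629 in the NC PNAs, and 713 and 700 in the Unop nerves. The 3 groups did not overlap, but the steps between them were small beside those of Irf1. Irf2 differed between PEG-fused and NC PNAs by -0.77 (SE 0.10, adjusted p = 0.00155) and from Unop nerves by 0.46 in PEG-fused PNAs (SE 0.11, adjusted p = 0.00759) and 1.23 in NC PNAs (SE 0.11, adjusted p = 2.76e-05). In RefSeq GRCr8, Irf2 overlaps the predicted genes LOC102552290 and LOC134482504 and the pseudogene Ube2v1-ps3, and the strand setting of the read counting is not given in the sources used here, so reads of these genes could not be told apart from its own.

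Because both factors use the same sites, the ratio of Irf1 to Irf2 counts was taken in each library. It was 2.75, 2.32 and 2.20 in PEG-fused PNAs, 13.1, 10.6 and 10.2 in the NC PNAs, and 1.93 and 1.57 in Unop nerves. The ratio in each PEG-fused PNA was below that in each NC PNA, with means that differed by -2.22 on the log2 scale, or 4.66-fold. A two-sided exact permutation test gave p = 0.1, the smallest that 3 libraries against 3 can give. As a ratio between 2 genes, each value contains gene length as a constant, and its change between groups is what can be read.

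Among the members that answer to innate sensors, Irf5 (ENSRNOG00000007437), which drives inflammatory cytokine genes in macrophages, had counts of 1722, 1442 and 1541 in the PEG-fused PNAs, 2761, 2922 and 2536 in the NC PNAs, and 392 and 271 in the Unop nerves. Both grafts were well above unoperated nerve, and PEG-fused PNAs sat between. The log2 fold change was -0.81 in PEG-fused against NC PNAs (SE 0.14, adjusted p = 0.00498), 2.26 in PEG-fused PNAs against Unop nerves (SE 0.16, adjusted p = 1.08e-05) and 3.06 in NC PNAs against Unop nerves (SE 0.16, adjusted p = 1.77e-06).

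Irf3 (ENSRNOG00000043388), which most cells express constitutively, had the smallest log2 fold change of the family between the grafts and between NC PNAs and Unop nerves. Its counts were 2911, 2840 and 2895 in the PEG-fused PNAs, 3119, 4158 and 3366 in the NC PNAs, and 1778 and 1964 in the Unop nerves. The grafts did not overlap with each other or with unoperated nerve, yet NC PNA 1 lay close to the PEG-fused PNAs. The difference between PEG-fused and NC PNAs was -0.29 (SE 0.11, adjusted p = 0.0858) and did not pass. Without NC PNA 1 it was -0.38 and passed (adjusted p = 0.0396), while over all alternatives the adjusted p ranged from 0.0396 to 0.21. Against Unop nerves Irf3 passed in PEG-fused PNAs at 0.62 (SE 0.12, adjusted p = 0.00278) and in NC PNAs at 0.91 (SE 0.12, adjusted p = 0.000273). Irf3 overlaps Bcl2l12 in RefSeq GRCr8, with the same limit on counting as for Irf2.

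Irf7 (ENSRNOG00000017414), the factor that amplifies type I interferon production, varied most among libraries of the same graft. Its counts were 2601, 5272 and 1068 in the PEG-fused PNAs, 13173, 4301 and 3902 in the NC PNAs, and 829 and 683 in the Unop nerves. The 2 graft groups overlapped, since PEG-fused PNA 2 exceeded both NC PNA 2 and NC PNA 3. The coefficient of variation (SD over mean) of Irf7 was 71.4% in PEG-fused and 73.6% in NC PNAs, beside 1.3% to 31.8% for the other 7 genes in the 2 grafts. The log2 fold change in PEG-fused against NC PNAs was -1.31 (SE 0.61, adjusted p = 0.146) and did not pass in any alternative, in which the adjusted p ranged from 0.0666 to 0.39. Without NC PNA 1 it was -0.74 (adjusted p = 0.356), and without PEG-fused PNA 3 it was -0.71 (adjusted p = 0.39). Against Unop nerves it was 1.70 in PEG-fused PNAs (SE 0.68, adjusted p = 0.0619), which became 2.30 and passed without PEG-fused PNA 3 (adjusted p = 0.0143). NC PNAs exceeded Unop nerves by 3.01 (SE 0.68, adjusted p = 0.00478), and by 2.44 without NC PNA 1 (adjusted p = 0.00884).

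Irf9 (ENSRNOG00000019478), the DNA-binding subunit of the complex that type I interferon activates, had counts of 1859, 2419 and 1577 in the PEG-fused PNAs, 2939, 2603 and 2486 in the NC PNAs, and 1170 and 1222 in the Unop nerves. PEG-fused PNA 2 came within reach of the lowest NC PNA without overlapping it. The difference between PEG-fused and NC PNAs, -0.47 (SE 0.15, adjusted p = 0.0461), was close to the threshold. It passed in 6 of 15 alternatives, with adjusted p from 0.0124 to 0.135, and it was lost without NC PNA 1 (-0.40, adjusted p = 0.113), NC PNA 2 (-0.49, adjusted p = 0.0816), NC PNA 3 (-0.53, adjusted p = 0.0707), PEG-fused PNA 1 (-0.45, adjusted p = 0.117) or PEG-fused PNA 3 (-0.33, adjusted p = 0.135). Against Unop nerves Irf9 was higher by 0.68 in PEG-fused PNAs (SE 0.17, adjusted p = 0.00797), a call lost without Unop nerve 1 (adjusted p = 0.0502). In NC PNAs it was higher by 1.16 (SE 0.17, adjusted p = 0.000395).

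Irf8 (ENSRNOG00000017869), which directs the development of monocytes and dendritic cells, had the largest rise over unoperated nerve. Its counts were 6027, 3079 and 4942 in the PEG-fused PNAs, 14478, 20073 and 12119 in the NC PNAs, and 390 and 310 in the Unop nerves. Every graft was many times above unoperated nerve, and the PEG-fused PNAs were all below the NC PNAs. The log2 fold change was -1.75 between PEG-fused and NC PNAs (SE 0.27, adjusted p = 0.00259), 3.69 between PEG-fused PNAs and Unop nerves (SE 0.30, adjusted p = 2.04e-05) and 5.45 between NC PNAs and Unop nerves (SE 0.30, adjusted p = 2.13e-06).

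Irf4 (ENSRNOG00000061070) acts in activated T cells, plasma cells and some macrophages. Its counts were 285, 288 and 311 in the PEG-fused PNAs, 743, 1126 and 957 in the NC PNAs, and 177 and 130 in the Unop nerves. The 3 PEG-fused PNAs lay within a narrow range, well under each NC PNA. Irf4 differed by -1.65 between PEG-fused and NC PNAs (SE 0.18, adjusted p = 0.000897), by 0.95 between PEG-fused PNAs and Unop nerves (SE 0.20, adjusted p = 0.00391) and by 2.60 between NC PNAs and Unop nerves (SE 0.20, adjusted p = 1.14e-05). Irf1, Irf2, Irf4, Irf5 and Irf8 passed between PEG-fused and NC PNAs in all 15 alternatives. Without NC PNA 1, the library with the strongest muscle signal, the log2 fold changes of Irf1, Irf2, Irf4, Irf5 and Irf8 were -2.91, -0.80, -1.81, -0.80 and -1.79.

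**Figure D2:**
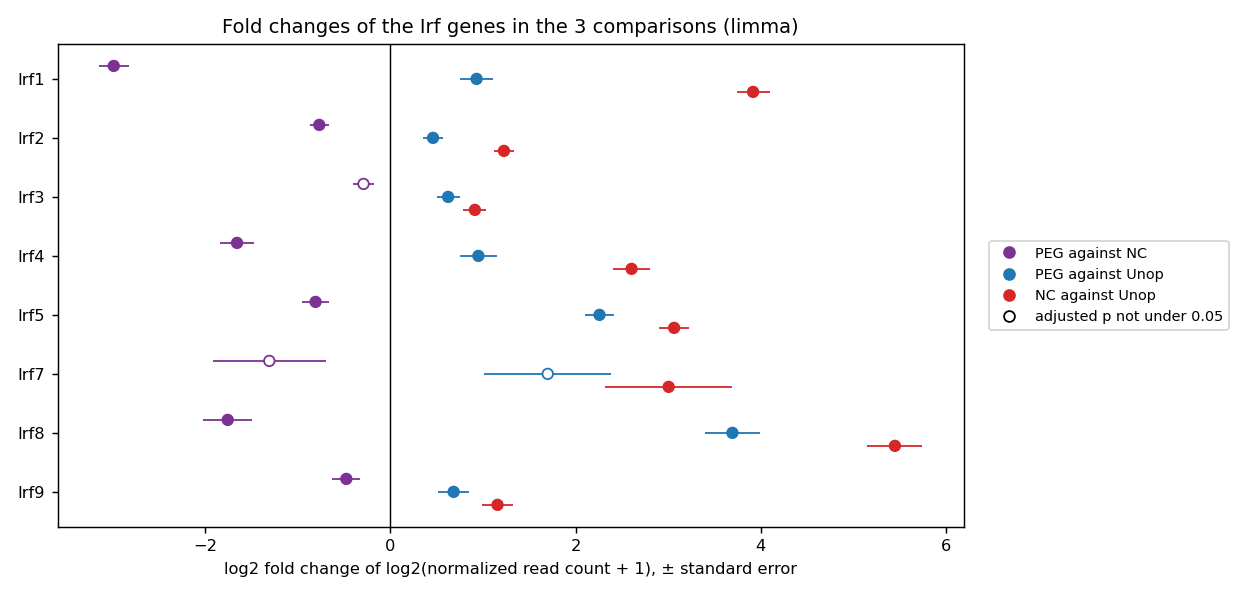
Log2 fold change (horizontal axis) with its standard error (line) of each Irf gene in PEG against NC, PEG against Unop and NC against Unop, from limma on log2(normalized read count + 1). Open points did not pass at an adjusted p of 0.05, and these are Irf3 and Irf7 in PEG against NC and Irf7 in PEG against Unop. Irf1 lies lowest in PEG against NC at -2.98, and Irf8 lies highest in NC against Unop at 5.45.

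The makeup of the family differed between the groups. The counts of the 8 genes summed to 17718 ± 1996 in the PEG-fused PNAs (SD, n = 3), 52918 ± 8233 in the NC PNAs (SD, n = 3) and 6603 ± 315 in Unop nerves (SD, n = 2). Irf1 made up 35.5% of the family's counts in NC PNAs (33.6% to 38.2%) but 13.4% in PEG-fused PNAs (11.1% to 15.1%) and 18.7% in Unop nerves (17.2% to 20.2%). Irf3 held 28.4% in Unop nerves, 16.4% in the PEG-fused and 6.81% in the NC PNAs. The share of Irf8 was 5.28% in Unop nerves, 26.6% in the PEG-fused and 29.4% in the NC PNAs, and its ranges overlapped between the 2 grafts. Every graft library thus held a larger share of Irf8 than either Unop nerve, and the share of Irf1 lay above that of the Unop nerves in every NC PNA and below it in every PEG-fused PNA. Irf5 made up 8.90% in the PEG-fused PNAs, 5.23% in the NC PNAs, and 4.25% to 5.74% in the Unop nerves. Shares depend on gene length, were compared for 1 gene at a time and were not tested.

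Marker genes of leukocytes and of other cell types moved with these differences. For comparison, 13.9% of all tested genes passed as lower in PEG-fused than in NC PNAs. The 9 T cell markers all passed as lower in PEG-fused than in NC PNAs. Their summed count was 8240 to 12838 in the PEG-fused PNAs, 30505 to 51821 in the NC PNAs and 1805 to 2185 in Unop nerves. Cd4 was the largest part of these sums (means of 5941 in PEG-fused and 10011 in NC PNAs) and differed by -0.73. The other T cell markers differed by -1.79 (Cd8b) to -3.84 (Cd3d). The 5 NK cell markers all passed as lower, with sums of 995 to 2314, 8631 to 12702 and 191 to 219 in the same order. Of 8 macrophage markers, 6 passed as lower, with sums of 89662 to 110536, 142367 to 163450 and 18979 to 29294. Cd68 (means of 20979 in PEG-fused and 16470 in NC PNAs, 0.36, adjusted p = 0.264) and Mrc1 (-0.09, adjusted p = 0.766) did not pass. That count of 6 was 2 without PEG-fused PNA 2 and 3 without NC PNA 3, and 4 without NC PNA 1, PEG-fused PNA 1 or PEG-fused PNA 3, while the sums did not overlap between the grafts. Dendritic cell markers passed as lower in 3 of 8 genes (3421 to 6416, 7327 to 12773 and 953 to 1150) and B and plasma cell markers in 6 of 8, although their sums overlapped (9471 to 10173 in PEG-fused PNAs and 8878 to 11139 in NC PNAs). Neutrophil markers passed as lower in 3 of 5 tested genes. That count was 0 without NC PNA 3 or PEG-fused PNA 2, and 1 or 2 without any other single graft. Their sums were 706 to 1077 in PEG-fused and 1357 to 1951 in NC PNAs, mostly from Csf3r (means of 760 and 1629). S100a8 (0.38, adjusted p = 0.443) and S100a9 (-0.06, adjusted p = 0.944) did not pass. In the other direction, fibroblast markers (4 genes) summed to 254108 to 373905 in PEG-fused PNAs, above the 144413 to 208890 of the NC PNAs, and to 243933 to 330801 in Unop nerves. Of these 4, 2 passed as higher, Pdgfra (0.31, adjusted p = 0.0195) and Col1a1 (1.06, adjusted p = 0.0499). Dcn (adjusted p = 0.122) and Lum (adjusted p = 0.0671) did not pass. The count of fibroblast markers was 4 with DESeq2, and 1 without NC PNA 1, NC PNA 2, NC PNA 3 or PEG-fused PNA 1. Endothelial sums overlapped between the grafts (7118 to 9641 and 6740 to 8787) and were 11539 to 11782 in Unop nerves. Adipocyte markers, like those of Schwann cells, set unoperated nerve apart. Their sums were 51417 to 91267 in Unop nerves, 3828 to 9141 in PEG-fused PNAs and 3575 to 5290 in NC PNAs. All 4 adipocyte genes passed as lower in each graft than in Unop nerves, and the share of all tested genes that did so is not given here. None of these markers was at 0 in all 8 libraries, although the neutrophil gene Elane had a mean of 0 in Unop nerves. In bulk tissue, fewer cells of a type and less RNA per cell cannot be told apart.

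Each Irf gene was therefore also set against Ptprc, which encodes CD45 and is expressed by all leukocytes. Ptprc itself had counts of 10131, 7870 and 9421 in the PEG-fused PNAs, 21474, 32358 and 23644 in the NC PNAs, and 1099 and 857 in the Unop nerves, a difference of -1.48 between the grafts (SE 0.18, adjusted p = 0.00114). Relative to Ptprc, Irf1 was lower in every PEG-fused PNA than in every NC PNA, with a difference of -1.50 on the log2 scale, so that NC PNAs had 2.83 times as much Irf1 per Ptprc. For Irf4 and Irf8 the differences relative to Ptprc were -0.17 and -0.27 with overlapping libraries (two-sided exact permutation p = 0.4 and 0.3). Irf2, Irf3, Irf5 and Irf9 were higher relative to Ptprc in each PEG-fused PNA than in each NC PNA, by 0.72, 1.19, 0.68 and 1.01. Ptprc itself differed by -1.48, so a gene equal in both grafts would also be higher relative to it, by more than these genes were. How many of all tested genes had such an arrangement was not computed. Relative to Ptprc, Irf7 differed by 0.18 with overlap (exact permutation p = 0.9). For Irf1, Irf2, Irf3, Irf5 and Irf9 the two-sided exact permutation p was 0.1, the smallest that 3 against 3 allows, and with the Irf1 to Irf2 ratio 9 such ratios were tested. Irf genes are also expressed outside leukocytes, so that a ratio to Ptprc is not a level per leukocyte, and the part of cell composition in each difference was not tested.

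**Figure D3:**
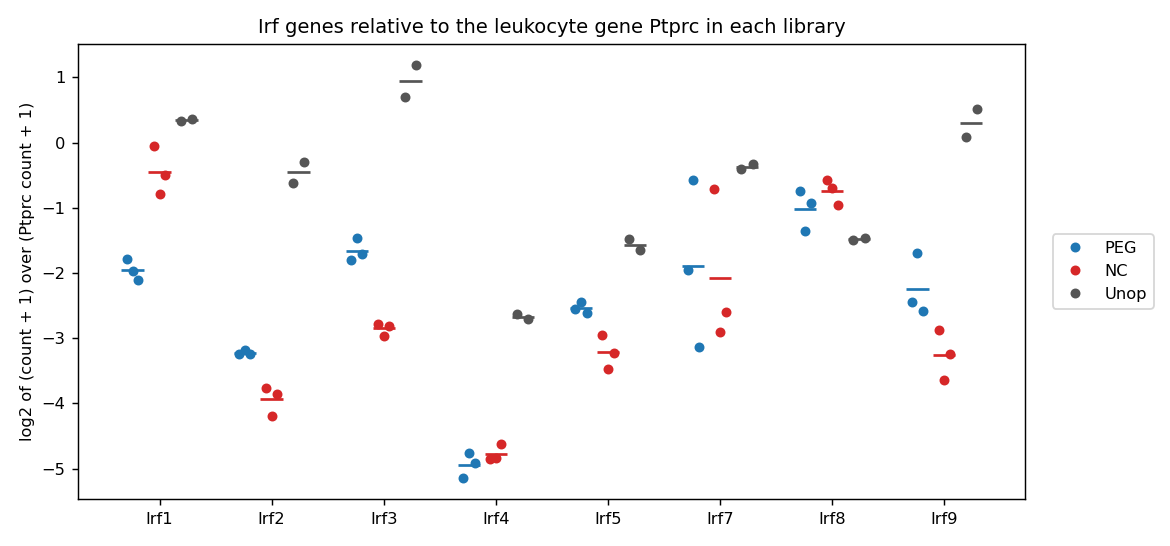
Each Irf gene relative to Ptprc, as log2 of (count + 1) over (Ptprc count + 1) on the vertical axis, in PEG-fused PNAs (PEG), NC PNAs (NC) and Unop nerves. Points are libraries and bars are group means. Irf1 has its 3 PEG points below its 3 NC points, the PEG points of Irf2, Irf3, Irf5 and Irf9 are above the NC points, and those of Irf4, Irf7 and Irf8 overlap.

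The pathway upstream of the family was examined through lists of its genes. Between the grafts, 13.9% of all tested genes passed as lower. Of interferons and their receptors, 3 of 7 tested genes passed as lower in PEG-fused than in NC PNAs, and the median log2 fold change was -0.19. Ifng, the gene of interferon gamma, had 5.89 ± 5.42 normalized counts in the PEG-fused PNAs (SD, n = 3) and 189 ± 52.7 in the NC PNAs (SD, n = 3), with a log2 fold change of -5.04 (SE 0.59, adjusted p = 0.00107). The receptor subunits Ifngr2 (-0.56, adjusted p = 0.00808) and Ifnar2 (-0.42, adjusted p = 0.0312) were lower by small steps, and Ifngr1 (-0.18, adjusted p = 0.508) and Ifnar1 (-0.19, adjusted p = 0.165) did not pass. Ifng, the ligand gene that was tested, thus stood far from the receptor genes in size of difference. The listed type I ligand gene, Ifnb1, was not tested because its counts were too low. Its mean count was 2.24 for Unop nerves, 0.60 for NC PNAs and 0 for PEG-fused PNAs. Without NC PNA 1, 5 of the 7 passed as lower, and without any other single graft 2 did. All 5 tested Janus kinases and STATs passed as lower (median -0.68), with Stat2, the partner of Irf9, at -1.35 (adjusted p = 0.00222), Jak2 at -0.78 (adjusted p = 0.00121), Stat3 at -0.68 (adjusted p = 0.000968) and Tyk2 at -0.64 (adjusted p = 0.0107).

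The share of all tested genes that passed as lower between the grafts was 13.9%. Of the sensors that activate Irf3, Irf5 and Irf7, 5 of 10 passed as lower in PEG-fused than in NC PNAs (median -0.77). They included Zbp1, a sensor of Z-form nucleic acid (-2.65, adjusted p = 0.00191), Dhx58, a regulator of RNA sensing (-1.95, adjusted p = 0.00785), and the endosomal receptors Tlr9 (-1.19, adjusted p = 0.0216) and Tlr7 (-1.10, adjusted p = 0.00221), whereas Tlr8 (-0.28, adjusted p = 0.123) and Tlr3 (-0.19, adjusted p = 0.402) did not pass. This count was 3 without NC PNA 3 or without PEG-fused PNA 3. Of the adaptors and kinases below them, 7 of 12 passed as lower (median -0.41). Tmem173, which encodes the adaptor STING, fell by 1.40 (adjusted p = 0.000529), and the kinase genes Ikbke and Tbk1, whose products phosphorylate Irf3 and Irf7, by 0.85 (adjusted p = 0.00335) and 0.66 (adjusted p = 0.000897). Tank, which binds both kinases, fell by 0.90 (adjusted p = 0.00167). Irak1 (0.09, adjusted p = 0.452) and Mavs, the adaptor of RNA sensors (0.03, adjusted p = 0.821), did not pass.

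Among genes whose products partner with or restrain Irf proteins, 9 of 14 passed as lower (median -1.31), beside 13.9% of all tested genes. Batf2, a partner of Irf1 in macrophages, had 31.7 ± 17.6 counts in the PEG-fused PNAs (SD, n = 3) and 646 ± 77.2 in the NC PNAs (SD, n = 3), a log2 fold change of -4.43 (SE 0.54, adjusted p = 0.00128). Batf, a partner of Irf4 and Irf8, was at -1.95 (adjusted p = 0.0134), Ikzf3, a lymphocyte factor, at -2.86 (adjusted p = 0.0191), and Socs1, an interferon-induced inhibitor of Janus kinases, at -3.50 (adjusted p = 0.000387). Usp18, an inhibitor of type I interferon signalling, was at -0.95 (adjusted p = 0.125), and Tcf3 at 0.03 (adjusted p = 0.893). Without NC PNA 2 the count was 6. Compared with Unop nerves, PEG-fused PNAs were higher in 7 of 7 interferon and receptor genes, 4 of 5 kinases and STATs, 8 of 10 sensors, 9 of 12 adaptors and kinases, and 13 of 14 partners and inhibitors, where 29.1% of all tested genes passed as higher. The count of 4 for kinases and STATs was 2 without PEG-fused PNA 2, Unop nerve 1 or Unop nerve 2.

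Downstream, genes associated with Irf1 and genes of the Irf9 complex were examined, against a background of 13.9% of all tested genes that passed as lower. All 14 genes of the first list, which serve antigen processing and macrophage effector functions, passed as lower in PEG-fused than in NC PNAs, with a median of -2.38, and did so again with each graft library left out in turn. Ido1, an enzyme that degrades tryptophan, was at -6.11 (adjusted p = 0.00114), Nos2, the inducible nitric oxide synthase, at -4.13 (adjusted p = 0.00638), Nlrc5, the coactivator of class I major histocompatibility genes, at -3.03 (adjusted p = 0.000343), and Ciita, the coactivator of class II genes, at -2.98 (adjusted p = 0.000897). The 14 genes summed to 105614 to 179677 counts in the PEG-fused PNAs, 413699 to 499745 in the NC PNAs and 57361 to 84870 in Unop nerves. The 17 tested genes of the Irf9 complex, the antiviral genes of type I interferon, had a median of -1.24, beside 0.00 over all genes. With limma, 10 of the 17 had an unadjusted p under 0.05. After adjustment 3 passed as lower, a share close to that background. These were Ifi44l (-1.95, adjusted p = 0.00686), Herc6 (-1.67, adjusted p = 0.0302) and Bst2 (-1.47, adjusted p = 0.00493), while Ifi27 (-0.74, adjusted p = 0.0891) and Mx1 (-1.71, adjusted p = 0.144) did not pass. The count was 8 with DESeq2, 8 without PEG-fused PNA 2, and 2 without NC PNA 1, PEG-fused PNA 1 or PEG-fused PNA 3. Against Unop nerves, PEG-fused PNAs were higher in 11 of 14 genes of the Irf1 list, a count that was 7 without Unop nerve 2. They were higher in 2 of 17 genes of the Irf9 list, a share below the 29.1% of all tested genes, and that count was 3 with DESeq2, 7 without PEG-fused PNA 3 and 0 without Unop nerve 2, where limma gave 2 genes at an unadjusted p under 0.05. NC PNAs were higher than Unop nerves in 14 of 14 and 15 of 17, where 32.2% of all genes passed as higher, and the count of 15 was 11 without Unop nerve 1 and 7 without Unop nerve 2.

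By sequence, the ISRE core found in the Irf7 promoter occurred in 7 of the 10 Irf1-associated genes with a promoter in the table (B2m, Casp1, Gbp2, Gbp5, Psmb10, Tap1 and Tap2). It occurred in 9 of 13 genes of the Irf9 list (Bst2, Ifi27, Ifi44, Ifi44l, Ifit3, Oas1a, Oasl2, Rsad2 and Xaf1), beside 3.41% of all promoters. The GAS letters found in the promoters of Irf1, Irf8 and Irf9 occurred in 1 of 10 and 3 of 13, beside 7.67% of all promoters. Both lists hold known interferon targets and were not drawn at random.

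The Irf9 list scattered among animals of the same group as Irf7 did, a pattern noticed after the values were seen. Irf7 deviated from its group mean by 0.09, 1.11 and -1.20 on the log2 scale in PEG-fused PNAs 1 to 3 and by 1.12, -0.49 and -0.63 in NC PNAs 1 to 3. The median deviation of the 17 genes of the Irf9 list was 0.02, 0.81 and -0.92 in the same PEG-fused PNAs and 0.99, -0.44 and -0.58 in the same NC PNAs. Of the NC PNAs, replicate 1 was highest in 17 of 17 of these genes, and of the PEG-fused PNAs, replicate 2 was highest in 16 of 17. Their summed counts were 33119, 59744 and 18248 in the PEG-fused PNAs, 126267, 54558 and 48175 in the NC PNAs, and 19892 and 15339 in the Unop nerves. The summed count of PEG-fused PNA 2 was thus above those of NC PNAs 2 and 3, while its Irf1, at 2015, was the lowest of the PEG-fused PNAs. Abundant genes weigh most in such a sum, so it does not speak for each gene. Among them, Ifi27 had means of 13075 in PEG-fused and 21409 in NC PNAs. Mx2 had 5065 ± 6735 in PEG-fused PNAs (SD, n = 3) and 6528 ± 3480 in NC PNAs (SD, n = 3). Irf1 deviated by 0.32, -0.22 and -0.10 in PEG-fused PNAs and by 0.15, 0.01 and -0.16 in NC PNAs, and the medians of its list were 0.36, -0.29 and -0.17 and then 0.08, 0.09 and -0.18. PEG-fused PNA 1 was highest in 12 of those 14 genes. NC PNA 1 was also the library with the highest muscle marker sum, and PEG-fused PNA 2, highest in the Irf9 list, had the lowest at 2543, and the part of muscle tissue was not tested.

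**Figure D4:**
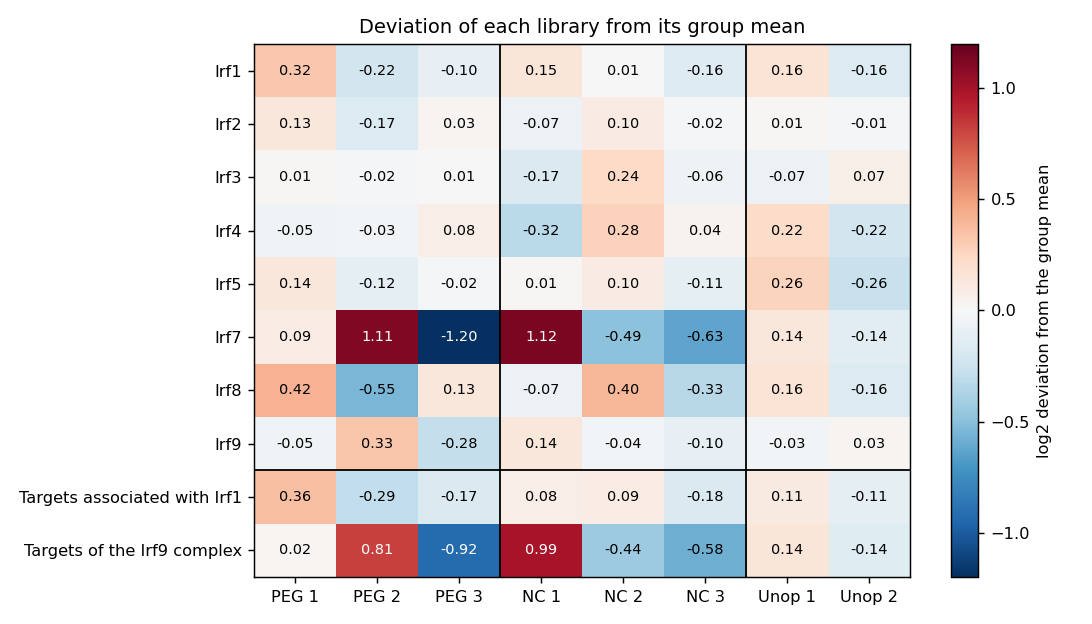
Deviation of each library from its group mean on the log2 scale, in colour and in figures, for the 8 Irf genes (upper rows) and as the median over the Irf1-associated genes and the genes of the Irf9 complex (lower rows). Columns are libraries, with lines between groups. Irf7 and the Irf9 list are high in PEG 2 and NC 1 and low in PEG 3, and the Irf1 list is high in PEG 1.

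For each Irf gene that passed between the grafts, the genes outside the family with the most similar profile were found by the root mean square difference of centred log2(count + 1) over the 8 libraries. Closest to Irf1 were Psmb9 (0.166), an immunoproteasome subunit, and the guanylate-binding protein genes Gbp5 (0.197) and Gbp7 (0.238). Closest to Irf2 were AABR07016845.1 (0.0749), Stat3 (0.0763) and Cln6 (0.0807). Irf4 had Phyhd1 (0.168), Arid5a (0.178) and Rhof (0.180) as its nearest profiles, and Irf5 had Tmem229b (0.0652), the lectin receptor gene Clec4a (0.117) and Ikbke (0.125). Irf8 was nearest to LOC691141 (0.228), Runx3 (0.229), a transcription factor of lymphocytes, and the integrin gene Itgal (0.248). Irf9 was nearest to RF00432 (0.116), RF02271 (0.122) and Adar (0.142), an RNA-editing enzyme. These distances describe 8 libraries in 3 groups and are largely set by the group means.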

How the data were processed

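Values are read counts per gene that the authors obtained by aligning paired-end reads to Rnor 6.0 with TopHat2, counting with HTSeq and dividing by the size factors of DESeq2, and the signal deposited is this normalized read count. Versions and the strand setting of these tools are not given in the sources used here. The authors' tables of fold changes and p-values for pairs of groups were not used.

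The labels gave 3 libraries of PEG-fused PNAs, 3 of NC PNAs and 2 of Unop nerves. A gene was tested if 2 or more libraries had 10 or more normalized counts, which held for 16478 of the 22798 genes with a read. limma 3.58.1 (R 4.3.3, trend, prior degrees of freedom 3.27) was fitted to log2(count + 1) of all 8 libraries with group means as the model, and the pseudocount of 1 understates changes of low counts. P-values were adjusted over the tested genes by the Benjamini-Hochberg procedure. Of the values above 0, 100% were whole reads within 0.001 after multiplication by a size factor of 0.800 to 1.12. Run on the recovered reads with TMM factors, the quasi-likelihood test of edgeR 4.0.16 called 2424 genes lower and 2553 higher in PEG-fused than in NC PNAs, beside 2286 and 2477 with limma.

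Ratios were tested with two-sided exact permutation tests (SciPy 1.17.1). Alternatives were edgeR, DESeq2 1.42.0, TMM rescaling, no filter, a pseudocount of 8, a stricter minimum of 50 counts, a robust fit, a fit to only the 2 groups compared, a block by replicate number and each library left out. The list counts with a library left out were added after seeing the data. Scripts were tested on simulated data. The members and the gene lists were chosen with earlier results of these data known. Named genes were all 8 members, from each list up to 4 genes that passed between the grafts with the largest fold change and up to 2 that did not with the largest mean count, and 3 genes of closest profile per member that passed. Genes with an ISRE core or GAS and the pattern among libraries were named after their values were seen.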

Additional observations from a re-analysis of the deposited data

How the results depend on the processing

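Of 344 fold changes of the 8 genes under alternative settings, 328 kept their direction and their side of the threshold and none changed sign. The other 16 concern Irf3, Irf7 and Irf9. Irf9 between the grafts was also lost with edgeR (adjusted p = 0.0604), TMM rescaling (0.0515), no filter (0.0572) and only the 2 groups compared (0.0668). Irf7 in PEG-fused PNAs against Unop nerves passed with DESeq2 (log2 fold change 1.98, adjusted p = 0.0373), edgeR (2.00, 0.05), only the 2 groups compared (0.0447) and the replicate block (2.16, 0.0173). Relative to Ptprc, the Irf7 difference of 0.18 ranged from -0.48 to 0.86 as each library was left out, and it turned negative without PEG-fused PNA 2 (-0.48), NC PNA 2 (-0.24) or NC PNA 3 (-0.09). The cause was not tested. Over all genes, calls between the grafts were 1390 lower and 1363 higher without PEG-fused PNA 2, and 1596 higher without PEG-fused PNA 3, beside 2286 and 2477. Same-numbered grafts deviated from their group means with correlations of 0.11, 0.11 and -0.05, so the numbers were not taken as pairs, and with the replicate block 6 Irf genes were lower between the grafts, as without it. With 3 libraries against 3 no ratio can reach a two-sided exact permutation p under 0.1, and comparisons with the 2 Unop nerves lean on the spread of the grafts. Depth did not limit the Irf genes, each of which had over 100 counts in every library.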
